A study of Homo sapiens with 8 samples.

Results

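The human miRBase entries hsa-miR-1260a, hsa-miR-1260b, hsa-miR-4286, hsa-miR-5100, hsa-miR-7975 and hsa-miR-7977, written without hsa from here on, give very bright spots on miRNA arrays, are suspected to report fragments of tRNA or of other abundant RNAs, and were examined in multiple myeloma (MM) cells after inhibition of EZH2. They are 6 of the 2549 human miRNAs on the array. They were picked by name because they were bright and because several of them had some of the largest falls after UNC1999 on these same 8 arrays. Their brightness and their fold changes in this comparison are therefore given as a description, with no test.

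The INA-6 cells are an established line from human MM that depends on IL-6 and was grown with it in both groups. UNC1999 is a small-molecule inhibitor of EZH2, the methyltransferase that places the repressive H3K27me3 mark. Total RNA was taken from cells kept for 120 hours, or 5 days, with 1 μM of UNC1999 (4 arrays) or with the solvent DMSO (4 arrays), with fresh medium and compound at 72 hours. The sample titles name DMSO as the control whereas the treatment protocol of the labels names the inactive analog UNC2400, and the arrays were taken as DMSO controls. The model is 1 cell line in culture, and the titles call the replicates biological.

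A miRNA is cut out of a hairpin by the nucleases Drosha and Dicer and is loaded on an Argonaute protein, where its seed, the bases near its 5′ end, pairs with target mRNAs. A tRNA carries amino acids to the ribosome. Its 3′ end is finished by an enzyme that adds the bases CCA, to which the amino acid is attached, and tRNAs are also cut into stable fragments of about the length of a miRNA. An array probe reads any labelled RNA that pairs with it well enough, so the signal of an entry is the signal of its probes and does not by itself name the RNA that was read.

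The mature sequences show why these entries are set apart, and they are printed with the seed, bases 2 to 8 counted from the 5′ end, in capitals. They were taken from RefSeq, which held 5 of the 6 entries and not miR-4286.

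miR-1260a: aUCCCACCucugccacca

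miR-1260b: aUCCCACCacugccaccau

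miR-5100: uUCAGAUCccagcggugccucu

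miR-7975: aUCCUAGUcacggcacca

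miR-7977: uUCCCAGCcaacgcacca

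Shared letters were found at the seed in 1 pair of entries and at the 3′ end in 3 entries. miR-1260a and miR-1260b shared the seed UCCCACC, and no other of the 2248 array miRNAs with a RefSeq sequence had it at bases 2 to 8. The other 301 names on the array were not searched. They also shared a run of 9 bases towards the 3′ end, CUGCCACCA, so that labelled RNA of one could be read by the probes of the other. miR-5100 and miR-7977 shared a run of 7 bases, UCCCAGC, which is the seed of miR-7977.

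The last 4 bases of miR-1260a, miR-7975 and miR-7977 were ACCA, shown here in capitals.

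miR-1260a: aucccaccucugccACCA

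miR-7975: auccuagucacggcACCA

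miR-7977: uucccagccaacgcACCA

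Searched at the 3′ end on the mature strand, ACCA closed 6 of the 2248 array miRNAs that had a RefSeq sequence, or 0.267%. The other 3 of those 6, miR-4252, miR-876-5p and miR-548al, were not detected on any array. CCA alone closed 42 of the 2248 miRNAs, or 1.87%, and GCACCA closed 3, of which miR-7975 and miR-7977 were 2. miR-1260b ended in the same letters with 1 more base, and miR-5100 ended in CUCU. The same 3 entries that ended in ACCA were 18 bases long, against a median of 22 bases over the 2248 miRNAs, of which 125 (5.56%) had 18 bases or fewer. No tRNA sequence was used here, and whether RNA from a tRNA was read by these probes was not tested.

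On the GRCh38.p14 assembly used by RefSeq the mature bases of miR-1260a lie at chr14:77266231-77266248 on the plus strand, within the span of NGB, the gene of neuroglobin. Those of miR-1260b lie at chr11:96341447-96341465 on the plus strand, within the span of MAML2, the gene of a Notch coactivator. The mature bases of miR-5100 lie at chr10:42997630-42997651 on the plus strand, those of miR-7977 at chr3:176515103-176515120 on the plus strand and those of miR-7975 at chr19:55123225-55123242 on the minus strand, and these 3 lie within no other annotated gene. In the annotated hairpins miR-1260a starts at base 14 of 73, miR-1260b at base 10 of 89, miR-5100 at base 68 of 119, and miR-7977 at base 1 of 49.

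The arrays lay on 1 slide. Human miRNAs detected numbered 369 and 370 on DMSO replicates 2 and 3, 482 and 484 on replicates 1 and 4, and 474 to 500 on the UNC1999 arrays. Signals were scaled so that the 75th percentile of the 346 miRNAs detected on all 8 arrays was equal, and 456 miRNAs passed a detection filter and were fitted with limma. Before scaling that percentile was 349 and 296 on DMSO replicates 2 and 3, 474 and 559 on replicates 1 and 4, and 534 to 729 on the UNC1999 arrays. The arrays were alike in pairs: the median difference between arrays over the tested miRNAs, on the log2 scale and without sign, was 0.083 between DMSO replicates 1 and 4 and 0.147 between 2 and 3, against 0.26 to 0.28 between the other DMSO pairs. It was 0.108 between UNC1999 replicates 1 and 3 and 0.129 between 2 and 4, against 0.18 to 0.20 between the others, and the values did not settle whether the arrays of an alike pair came from separate cultures. Of 6 miRNAs known from blood cells, 5 were detected on all 8 arrays, and miR-155-5p on 2 of 8. The markers of red cells and serum, liver, muscle and epithelium were detected on none, and of the 2 markers of nerve cells miR-9-5p was detected on all 8 and miR-124-3p on none.

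After 5 days of UNC1999 all 6 entries were lower than after DMSO, by 2.17-fold to 2.77-fold on the scaled arrays. Their median log2 fold change was -1.32, against 0.01 over all 456 tested miRNAs. All 6 met the rule used to call a miRNA lower, a limma adjusted p of at most 0.05 with a fold change of at least 1.2, which 34.6% of the tested miRNAs met as well (70.6% were called in either direction), and nothing is read from that count because the entries were chosen on this contrast. A log2 fold change of -1 or less was reached by 19 of the 456 miRNAs, or 4.17%, among them all 6 entries, which held the positions 3, 4, 5, 6, 9 and 13 in order of fall. In each entry the lowest DMSO array lay above the highest UNC1999 array, by 0.72 to 0.90 on the log2 scale, where 32.7% of the tested miRNAs were separated in this direction.

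miR-7975 was the brightest human entry on every array, at a log2 scaled signal of 18.61, 18.79, 18.90 and 18.54 on DMSO replicates 1 to 4 and of 17.82, 17.38, 17.68 and 17.49 on UNC1999 replicates 1 to 4. The UNC1999 arrays were all lower, and the log2 fold change of -1.12 (standard error, SE, 0.13) was the smallest of the 6. miR-7977, the second brightest entry on every array, read 17.42, 17.63, 17.68 and 17.40 on the DMSO arrays and 16.50, 15.89, 16.32 and 16.09 on the UNC1999 arrays. Its log2 fold change was -1.33 (SE 0.14), and UNC1999 replicate 2 was the lowest array, as it was for each of the 6 entries.

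miR-5100 read 13.71, 13.91, 13.95 and 13.64 on the DMSO arrays and 12.77, 12.13, 12.62 and 12.44 on the UNC1999 arrays. DMSO replicates 2 and 3 were the highest and all UNC1999 arrays the lowest, and the change on the log2 scale was -1.31 (SE 0.14). miR-4286 read 12.04, 12.77, 12.77 and 11.99 on the DMSO arrays and 11.21, 10.54, 10.99 and 10.95 on the UNC1999 arrays. It had the largest fall of the 6, a log2 fold change of -1.47 (SE 0.21), and also the widest spread, since DMSO replicates 2 and 3 stood clear above replicates 1 and 4 and the DMSO SD was 0.44 (n = 4).

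The pair with a common seed fell by similar amounts. miR-1260a read 11.14, 11.25, 11.44 and 11.01 on the DMSO arrays and 10.11, 9.57, 9.93 and 9.92 on the UNC1999 arrays, a log2 fold change of -1.33 (SE 0.14). miR-1260b read 9.91, 10.21, 10.38 and 9.83 on the DMSO arrays and 8.95, 8.61, 8.84 and 8.90 on the UNC1999 arrays, a log2 fold change of -1.26 (SE 0.14). The DMSO and UNC1999 arrays did not overlap for either, and the log2 difference between miR-1260a and miR-1260b on the same array was 1.13 ± 0.09 after DMSO and 1.06 ± 0.09 after UNC1999 (SD of 4 arrays each).

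**Figure D1:**
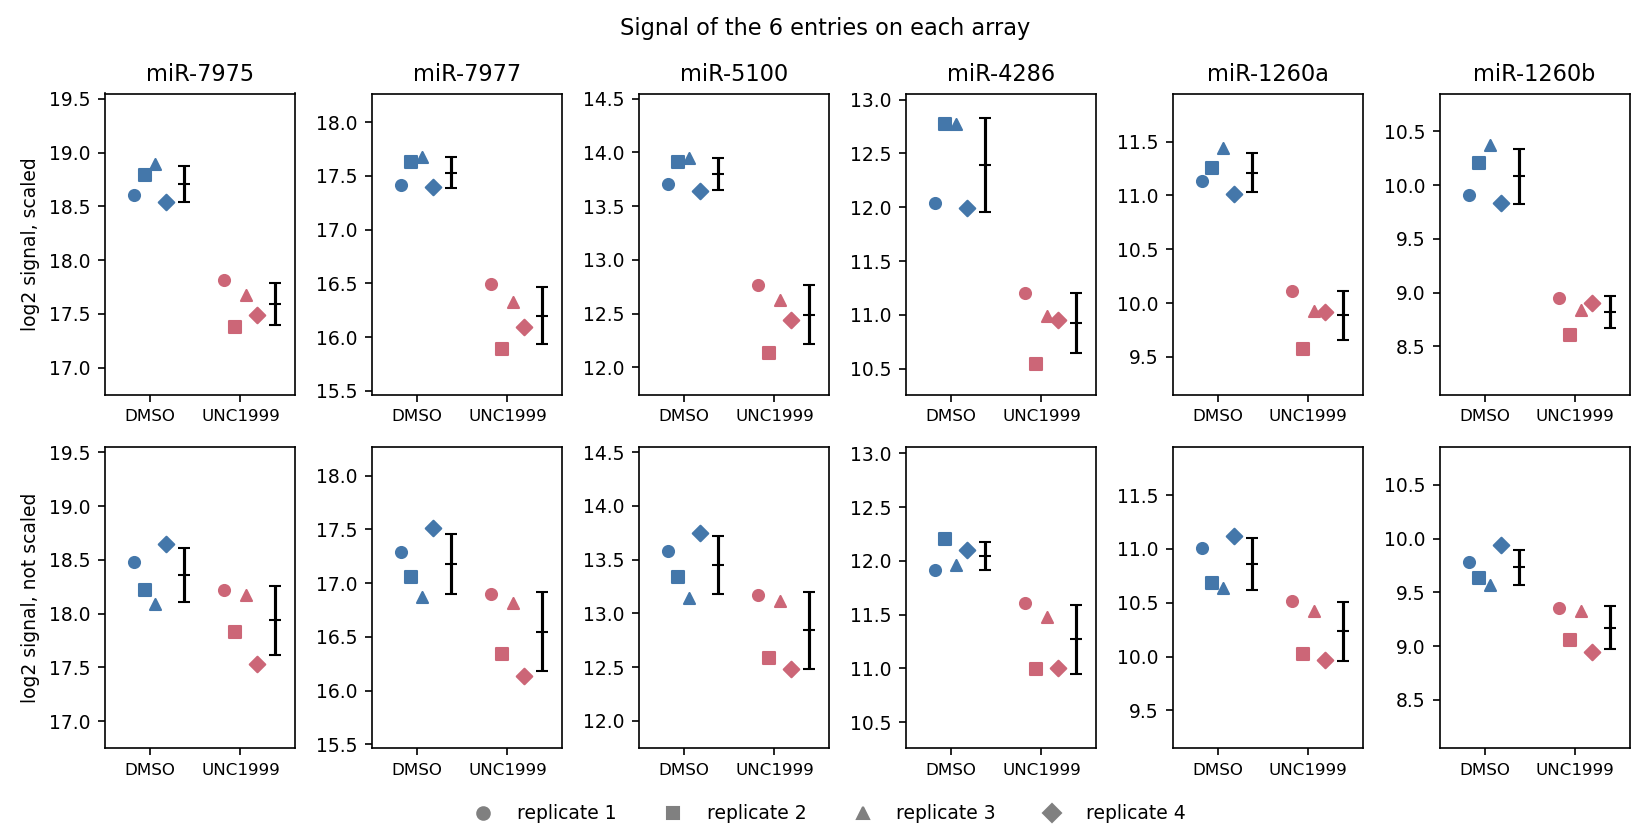
Log2 signal of the 6 entries on the 4 DMSO arrays (blue) and the 4 UNC1999 arrays (red), scaled to the 75th percentile in the upper row and not scaled in the lower row. Marker shapes stand for replicate numbers and black bars for the mean and SD of 4 arrays, every panel spans the same log2 range, and the groups are apart in all 6 upper panels and overlap in 3 of the lower panels.

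A rank within an array needs no scaling, and 4 of the 6 entries lost places after UNC1999 while 2 kept theirs. Among all 2549 human miRNAs, counted from the brightest, miR-5100 moved from ranks 4 to 7 on the DMSO arrays to 11 to 13 on the UNC1999 arrays, and miR-4286 held ranks 11 to 21 after DMSO and 31 to 40 after UNC1999. miR-1260a held ranks 26 to 36 after DMSO and 59 to 69 after UNC1999, and miR-1260b held 47 to 64 and 91 to 104. The ranks of the 2 groups did not overlap for these 4 entries, which were chosen on this contrast. The share of all miRNAs with ranks apart in this way was not computed. miR-7975 and miR-7977 held ranks 1 and 2 on all 8 arrays, so their falls did not move their ranks.

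Most of the signal of these arrays came from a few of the entries, and this part of the signal was smaller after UNC1999. Together the 6 entries gave 68.7% ± 4.10 (SD, n = 4) of the summed signal of all human miRNAs on the DMSO arrays, from 64.9% to 72.3%. On the UNC1999 arrays they gave 47.5% ± 4.24 (SD, n = 4), from 43.0% to 52.0%. The groups did not overlap. miR-7975 alone gave 45.9% on average after DMSO and 33.2% after UNC1999, miR-7977 gave 20.3% and 12.7%, and miR-5100 gave 1.53% and 0.974%. These are shares of probe brightness and not of RNA molecules, since probes differ in how brightly they read the same amount of RNA.

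**Figure D2:**
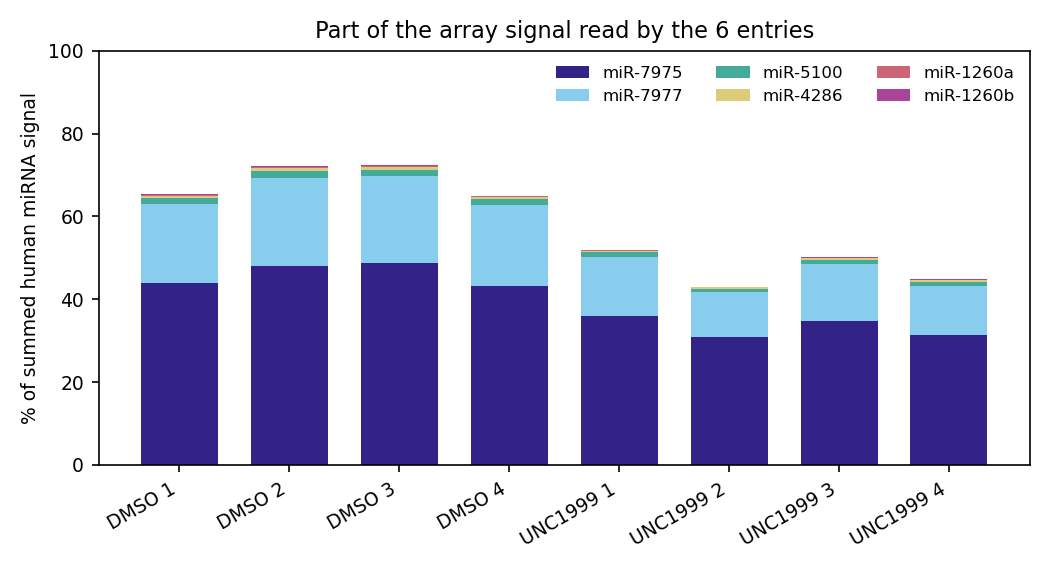
Percent of the summed, unscaled signal of all human miRNAs that each of the 6 entries gave on each array, stacked, for DMSO and UNC1999 replicates 1 to 4. miR-7975 and miR-7977 make up nearly all of each bar, and the bars reach 64.9% to 72.3% on the DMSO arrays and 43.0% to 52.0% on the UNC1999 arrays.

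Each entry was read by 2 probes with 10 spots each, and both probes of every entry were lower after UNC1999. The log2 changes of the 12 probes lay between -1.58 and -1.06, and for all 12 the DMSO and UNC1999 arrays did not overlap. The share of all probes separated in this way was not computed, and for the tested miRNAs it was 32.7%. The mean intensities of the 12 probes before scaling ran from 87.8 to 265937. No spot was saturated, the brightest spot reached 35.5% of the saturation level, and all 960 spots of the 8 arrays were well above background, 34 of them marked as outliers and left out. The coefficient of variation over the spots of a probe was 0.316% to 9.05%, small beside the fall.

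In each entry the dimmer probe fell on average somewhat more than the brighter one. The brighter probe gained on the dimmer by 0.04 to 0.05 on the log2 scale in miR-1260a, miR-1260b, miR-5100 and miR-7977. In each of these the difference between the probes overlapped between the groups. The gain was 0.11 in miR-4286 and 0.17 in miR-7975. In miR-7975 the difference between the probes was 1.05 ± 0.15 after DMSO and 1.22 ± 0.13 after UNC1999 (SD, n = 4 per group), and the groups overlapped. In miR-4286 it was 3.50 ± 0.07 after DMSO and 3.61 ± 0.01 after UNC1999 (SD, n = 4 per group), with no overlap.

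**Figure D3:**
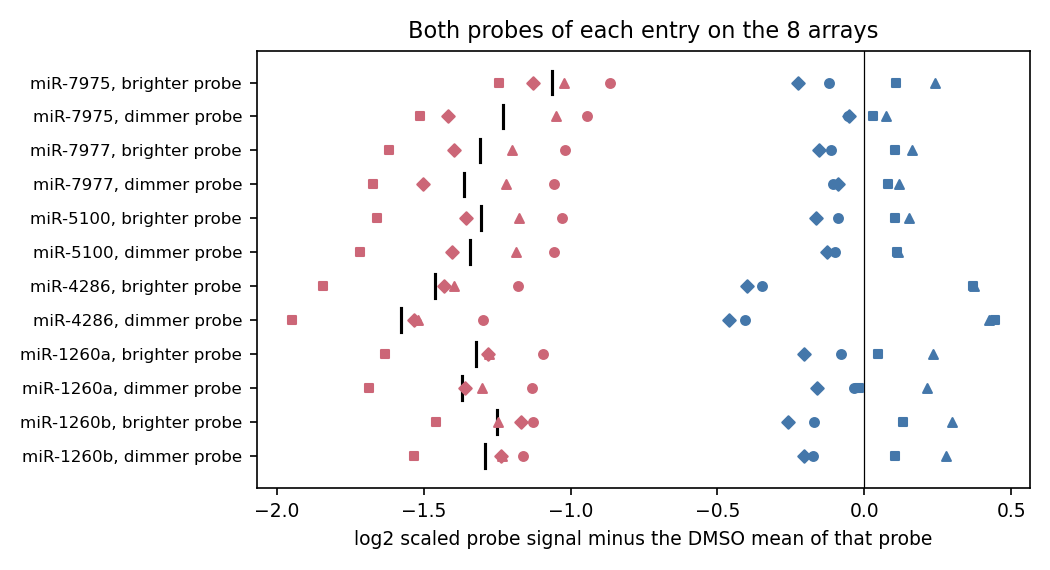
Log2 scaled signal of both probes of each entry on each array, minus the DMSO mean of the same probe, with DMSO arrays in blue, UNC1999 arrays in red, marker shapes for replicate numbers as circle, square, triangle and diamond for 1 to 4, and a black line at the UNC1999 mean. All 12 probes have every UNC1999 array below every DMSO array, with UNC1999 means from -1.58 to -1.06.

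The differences between entries on the same array, which do not depend on the scaling, varied little from array to array. Since the entries were picked for falling on these arrays, the difference between the groups largely cancels in each pair, and the ranges are a description. The log2 difference of miR-7977 over miR-5100 was 3.73 ± 0.02 after DMSO and 3.71 ± 0.04 after UNC1999 (SD, n = 4 per group), with a range of 0.10 over all 8 arrays. The 10 pairs of entries without miR-4286 had ranges of 0.10 to 0.37, and the 5 pairs with it 0.53 to 0.82.

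miR-7975 and miR-4286 differed from the other entries in opposite ways. Against the mean of the other 5 entries on the same array, miR-7975 gained 0.22 on the log2 scale after UNC1999, from 5.70 ± 0.07 to 5.93 ± 0.08 (SD, n = 4), and its groups did not overlap. The other 5 entries changed by -0.20 for miR-4286 and by -0.03 to 0.05 for the rest. The change of miR-4286 was smaller than its DMSO SD of 0.27, and its difference to miR-1260a was 0.90, 1.52, 1.33 and 0.98 on DMSO replicates 1 to 4 against 0.97 to 1.09 on the UNC1999 arrays. The difference of miR-7977 over miR-7975 went from -1.18 ± 0.03 (SD, n = 4) to -1.39 ± 0.07 (SD, n = 4), with no overlap.

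The entries followed the alike pairs of arrays. DMSO replicates 2 and 3 were above replicates 1 and 4 in all 6 entries on the scaled arrays, an order that 21.1% of the tested miRNAs had, and UNC1999 replicates 1 and 3 were above 2 and 4 in 5 of 6, an order that 24.1% had. The DMSO order turned with the scaling: without it replicates 1 and 4 were above 2 and 3 in 5 of 6 entries and in 96.5% of the tested miRNAs, while UNC1999 replicates 1 and 3 were above 2 and 4 in all 6 entries, an order that 35.5% had. Among the arrays on one side of the second principal component, DMSO replicates 1 and 4 and UNC1999 replicates 1 and 3, the log2 fold changes were -1.05 to -0.83. Among the other 4 arrays, which include DMSO replicates 2 and 3 with the fewest miRNAs detected, they were -2.02 to -1.41. Since every scaled DMSO array lay above every UNC1999 array in all 6 entries, any split of the arrays that holds both groups had to show a fall. The part of the pairing in the size of the fall was not tested. Within slide row 1, with 3 DMSO arrays and 1 UNC1999 array, the log2 fold changes were -1.39 to -1.08, and within row 2, with 1 DMSO array and 3 UNC1999 arrays, -1.86 to -1.27.

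The size of the fall depended on the scaling. Without any scaling between arrays the log2 fold changes were -0.77 for miR-4286, -0.63 for miR-1260a and miR-7977, -0.61 for miR-5100, -0.56 for miR-1260b and -0.42 for miR-7975. Under this setting the median of all tested miRNAs was 0.67. Relative to it the median of the entries was -1.30, against -1.33 on the scaled arrays. Scaling moves every miRNA of an array alike, so this likeness is largely fixed in advance. The groups remained apart for miR-1260a, miR-1260b and miR-4286, 3 of 6 entries, by 0.12 to 0.30 on the log2 scale. Of all 456 tested miRNAs 4 (0.877%) were lower with no overlap. These 4 include the 3 entries, which were chosen on this contrast, so nothing is read from that share. The groups overlapped for miR-5100, miR-7975 and miR-7977. miR-1260a and miR-4286 alone were then called lower, and the count of called miRNAs was 234 higher and 4 lower, against 164 higher and 158 lower with scaling.

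Scaling to the labelled spike-in RNAs that are added in equal amount gave much the same picture, with log2 fold changes of -0.79 to -0.44 for the entries and a median of 0.65 over all tested miRNAs. The groups were apart for 5 of 6 entries, all but miR-7975, and the same 5 were called lower. On the log2 scale the gap was only 0.01 for miR-5100 and 0.04 for miR-7977. It was 0.14 to 0.18 for miR-1260a, miR-1260b and miR-4286. Of all 456 tested miRNAs 6 (1.32%) were lower with no overlap, and these include the 5 entries, so nothing is read from that share. In all 240 miRNAs were called higher and 7 lower. With the 75th percentile taken over all human miRNAs the entries changed by -1.25 to -0.90 and the median of all tested by 0.23, with 192 miRNAs called higher and 88 lower. Normexp background correction gave -1.21 to -0.89 for the entries and -0.29 for all tested, with 54 called higher and 230 lower. Relative to the median of all tested miRNAs the median of the entries was -0.77 with normexp. All 6 entries were below 0 under these scalings and this correction, and the change in total signal between the groups and its part in these values was not tested.

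The quantile normalization computed here from the summed signals gives equal values to equal ranks, and so set miR-7975 and miR-7977, at ranks 1 and 2 on every array, to a change of 0. It left the other 4 entries at log2 fold changes of -1.39 to -1.24. In the authors' processed log2 table miR-7975 had the same value on every array. There miR-7977 read 14.15, 14.15, 14.15 and 14.47 on the DMSO arrays and 13.95, 13.95, 14.15 and 13.95 on the UNC1999 arrays, which overlap, and its log2 fold change was -0.23. The other 4 entries had log2 fold changes of -1.37 to -1.20 in that table and no overlap. The share of all miRNAs without overlap in that table was not computed.

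**Figure D4:**
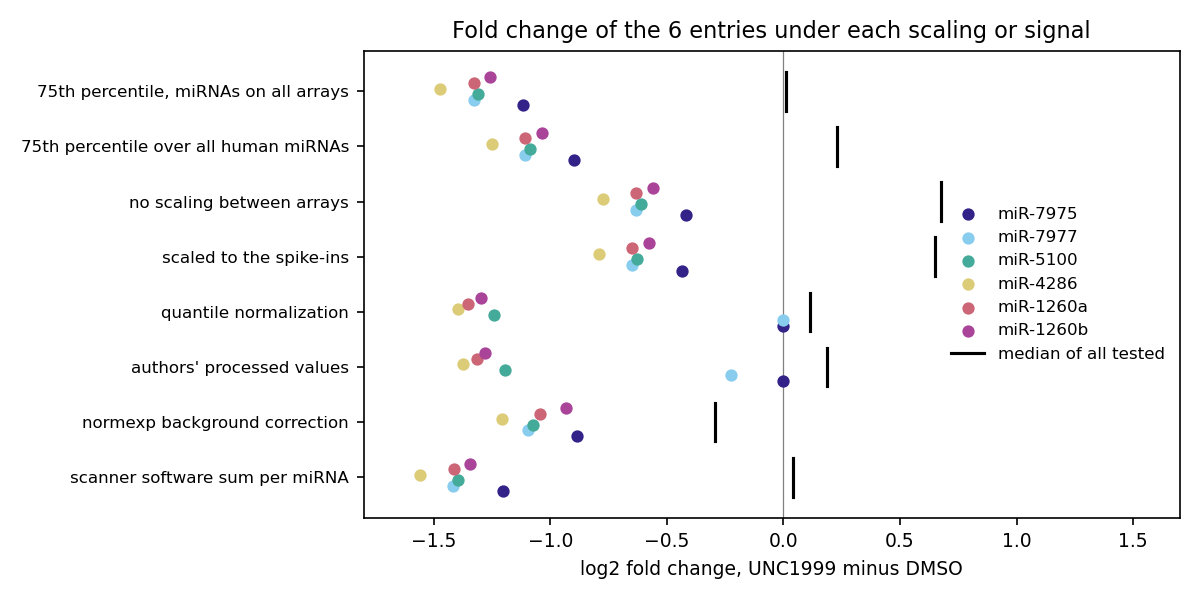
Log2 fold change, UNC1999 minus DMSO, of the 6 entries (coloured points) under 8 choices of scaling or signal, with the median of all tested miRNAs as a black line. The entries lie left of that line in every row, the whole row shifts right with no scaling or with the spike-ins, and miR-7975 and miR-7977 lie at 0 under quantile normalization.

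Other miRNAs that end in CCA were called in both directions on the scaled arrays. Of 39 such miRNAs beside the entries 7 were tested, and 3 of the 7 were called lower and 2 higher by limma, where 34.6% and 36.0% of all tested miRNAs were called. The fold change was -0.79 on the log2 scale (SE 0.18, limma adjusted p = 0.0035) for miR-4649-3p, -0.74 (SE 0.17, limma adjusted p = 0.0037) for miR-3162-3p and -0.38 (SE 0.10, limma adjusted p = 0.0062) for miR-4484. miR-223-3p, a miRNA of myeloid cells, rose by 1.18 (SE 0.19, limma adjusted p = 5.7e-04) and miR-572 by 0.52 (SE 0.15, limma adjusted p = 0.011). The groups did not overlap for these 5, which had been called on the same values. The share of all tested miRNAs separated in either direction was not computed, and 32.7% were separated with UNC1999 lower. Without scaling or with the spike-ins limma called 0 of the 7 lower, 0 also at an unadjusted p under 0.05, and with normexp it called 5 lower and the calls of miR-223-3p and miR-572 were lost. Of all 456 tested miRNAs 4 were called lower without scaling, 7 with the spike-ins and 230 with normexp. The median over the 7 miRNAs ending in CCA was -0.26, and it was above 0 without scaling (0.44), with the spike-ins (0.42), with the scanner software's sums (0.22) and in the authors' table (0.60).

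The other short miRNAs were also called in both directions on the scaled arrays. Of 34 other tested miRNAs with 18 bases or fewer, limma called 8 lower and 16 higher, where 34.6% and 36.0% of all tested miRNAs were called, with a median log2 fold change of 0.22, and the lowest of them had -0.96. In settings chosen after seeing the data, limma called 23 of the 34 higher without scaling and 25 with the spike-ins, with 0 lower in both, 0 also at an unadjusted p under 0.05, and with normexp it called 12 lower and 9 higher. Of all 456 tested miRNAs 234 were called higher without scaling and 240 with the spike-ins, and with normexp 230 lower and 54 higher.

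Entries taken from general knowledge to share sequence with tRNA, ribosomal or mitochondrial RNA rose or did not pass the test. Of 11 such names 10 were on the array, all but miR-4454, and 8 were tested. Matches of these names to tRNA were not checked, so the 8 give no comparison with other tRNA-like entries. Of the 8, limma called none lower, 0 also at an unadjusted p under 0.05, and 5 higher, where 36.0% of all tested miRNAs were called higher. The 5 were miR-3648 (log2 fold change 0.57, SE 0.11, limma adjusted p = 0.0015) and miR-663a (0.48, SE 0.15, limma adjusted p = 0.016), both of which match repeats of the ribosomal RNA genes, miR-6087 (0.46, SE 0.10, limma adjusted p = 0.0025), miR-4485-3p (0.78, SE 0.20, limma adjusted p = 0.0066), which matches mitochondrial ribosomal RNA, and miR-6723-5p (0.31, SE 0.09, limma adjusted p = 0.014). miR-3656 had 0.25, miR-4485-5p 0.12 and miR-7641 -0.12, and these 3 did not pass. The median of the 8 was 0.39. The count called higher ranged from 2 with normexp to 8 with the spike-ins. Of all 456 tested miRNAs 54 were called higher with normexp and 240 with the spike-ins. The median of the list stayed above 0 under every alternative.

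The miRNAs whose course over the 8 arrays was most like that of the entries were named by the smallest root mean square (RMS) difference from the mean course of the 6, each centred on its own mean log2 scaled signal. They were miR-7114-5p at 0.10, miR-6826-5p at 0.13, miR-211-3p, from an intron of TRPM1, at 0.17, and miR-17-3p and miR-18b-5p, from MYC-driven miRNA clusters, at 0.22 and 0.23. The median over the 450 tested miRNAs that are not entries was 0.72. The entries lay at 0.05 to 0.17, which their choice and their part in the mean course largely fix. Being chosen for likeness, these 5 fell by construction, with log2 fold changes of -1.20, -1.20, -1.01, -1.05 and -0.98 in that order.

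**Figure D5:**
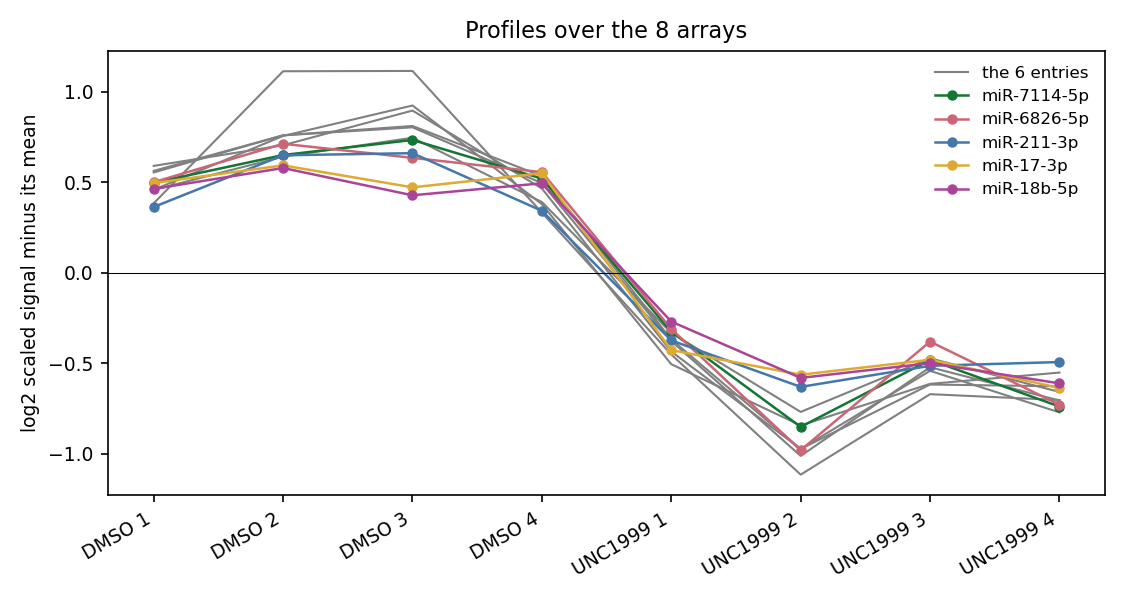
Log2 scaled signal minus its own mean over the 8 arrays, for the 6 entries (grey lines) and for the 5 miRNAs nearest to their mean course (coloured lines), with the arrays on the horizontal axis. All lines lie above 0 on the DMSO arrays and below 0 on the UNC1999 arrays, and the highest grey line on DMSO replicates 2 and 3 is miR-4286.

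The letters of the 2 nearest miRNAs were set against those of the entries, a comparison chosen after the values were seen. miR-6826-5p holds a run of 10 bases that is the reverse complement of bases 2 to 11 of miR-1260a, in capitals here.

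miR-6826-5p: ucaauaggaaAGAGGUGGGAccu

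miR-1260a: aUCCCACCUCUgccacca

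The run AGAGGUGGGA was found in 1 of the 2248 array miRNAs with a sequence, or 0.0445%, and this 1 is miR-6826-5p itself. The run was picked as the longest one found, so this share is no measure of rarity. The last 7 bases of the run, GGUGGGA, are the complement of the seed that miR-1260a and miR-1260b share, and 10 of the 2248 miRNAs (0.445%) held them. Of these 10, 5 were tested: miR-6808-5p had a log2 fold change of -0.34, miR-6127 of -0.38, miR-4433b-3p of 0.93, miR-4433a-3p of 0.70 and miR-6826-5p of -1.20. The 5 did not share a direction. miR-7114-5p shared a run of 7 bases with miR-5100, GGUGCCU, on the same strand. A probe pairs with its own miRNA, so a run found on the same strand in different miRNAs could pair with the probes of each. A reverse complement run, as between miR-6826-5p and miR-1260a, could not be read in this way. Whether one RNA was read by probes of more than 1 of these entries was not tested.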

How the data were processed

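For every 1-colour array the authors deposited the output of Agilent Feature Extraction 10.7.3.1 (named in the submitters' processing notes), with a background-subtracted intensity per spot that carries no normalization between arrays, and a table of processed log2 values, used here as an alternative, whose normalization is not given in the sources used here. Outlier spots were dropped, the mean over the spots gave a probe its value, and a miRNA got the sum of its probes. Each array was scaled to its 75th percentile over 346 miRNAs, those detected on every array, and brought back to the level of the geometric mean percentile. A floor of 8.98 was set before log2. Human miRNAs that were detected on all 4 arrays in at least 1 group, 456 in number, entered lmFit and eBayes (limma 3.58.1, R 4.3.3) with no block. Calls required a Benjamini-Hochberg adjusted p up to 0.05 and a fold change from 1.2 upwards. The fit was tested on simulated data of the comparison of DMSO and UNC1999, in which 200 of the 456 miRNAs had a known change: 87% of these were recovered and 2.25% of calls were false. The simulated noise was independent between arrays and no scaling step was simulated. These rates therefore do not cover the alike pairs of arrays or the choice of scaling. Summaries used pandas 2.3.3 in Python 3.11.15.

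The members and lists were chosen with earlier results of these data known. The text names the 6 entries, called miRNAs of the lists and the 5 nearest courses. Replicate numbers were not taken to pair the arrays. Alternatives were other scalings, signals, backgrounds, floors, filters, variance models and blocks, and leaving out each array. The number of arrays limits the precision. RefSeq sequences matched 2248 of 2549 names.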

Additional observations from a re-analysis of the deposited data

Results flagged for a closer look

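Among 42 groups of 4 arrays, those of the entries and of the tested miRNAs of both lists, 2 had 1 array far from the other 3, where chance gives about 1 in 20. miR-4484, which ends in CCA, read a log2 scaled signal of 6.35 on DMSO replicate 3 and 6.16 to 6.19 on the other DMSO arrays. miR-6723-5p, of the list of other RNAs, read 6.08 on DMSO replicate 2 and 6.30 to 6.35 on the others. None of the 12 groups of the 6 entries stood out in this way.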

How the results depend on the processing

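No fold change of an entry changed sign under the 23 alternatives run for it, nor that of a probe under the 2 run for probes, and the median of the miRNAs ending in CCA did, as given above. For the entries this was largely fixed in advance. The other floor, filters and variance model, and blocks by replicate number or alike pair, left their fold changes as they were. Leaving out 1 array could not turn a sign, since every scaled DMSO array lay above every UNC1999 array. With no scaling the log2 fold changes were -0.63 for miR-1260a, -0.56 for miR-1260b, -0.77 for miR-4286, -0.61 for miR-5100, -0.42 for miR-7975 and -0.63 for miR-7977 (median -0.62), with 4 miRNAs called lower and 0 of those ending in CCA. With the spike-ins they were -0.65, -0.58, -0.79, -0.63, -0.44 and -0.65 in that order (median -0.64), with 7 called lower and 0 of those ending in CCA. With the percentile over all human miRNAs they were -1.11 for miR-1260a, -1.04 for miR-1260b, -1.09 for miR-5100, -0.90 for miR-7975 and -1.11 for miR-7977, with 88 called lower. With normexp they were -1.04, -0.93, -1.07, -0.89 and -1.10 for the same 5 (median of all 6 -1.06), with 54 called higher and 230 lower, and 5 of those ending in CCA lower. Under normexp the probes changed by -0.95 and -1.06 for miR-1260a, -0.84 and -0.96 for miR-1260b, -1.15 for the dimmer probe of miR-4286, -1.07 and -1.07 for miR-5100, -1.001 and -0.83 for miR-7975 and -1.13 and -1.08 for miR-7977. With quantile normalization miR-7975 and miR-7977 changed by 0, since their ranks were equal on all arrays, and in the authors' values by 0 and -0.23. With no detection filter 249 were called lower and 6 of those ending in CCA, and with detection on all 8 arrays 109 were called higher. Of all calls 50.9% were higher, against 98.3% without scaling, 97.2% with the spike-ins, 68.6% with the percentile over all human miRNAs, 19.0% with normexp and 40.1% with no detection filter. Leaving out 1 array at a time gave a median of the entries of -1.40 to -1.21, 143 to 158 called lower and 135 to 173 higher, with all 6 entries called lower each time. The 4 same-numbered pairs of arrays had correlated deviations of 0.18, 0.27, -0.42 and -0.39, so the numbers were not used to pair. With the replicate number as a block 308 miRNAs were called, 149 lower and 159 higher, and the median of the entries was -1.32. Apart from the scaling, which by construction moves every miRNA of an array alike, and the filters, which change how many are tested, the cause of these differences was not tested. All 6 entries were well above background on every array.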
